A study of Mus musculus with 2 samples.

Results

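The genes described here are 54 mouse genes of DNA damage sensing and repair, taken by symbol from 52550 gene identifiers in the count tables. They were sorted into 7 groups: 12 of homologous recombination, 10 of the Fanconi anaemia pathway, 6 of end joining, 3 of mismatch repair, 10 of nucleotide excision repair, 8 of base excision and single-strand break repair, and 5 of checkpoint signalling. RNA was sequenced from RAW264.7, a line of mouse macrophages that arose from a tumour induced by Abelson leukaemia virus, grown as a 3D culture or as a conventional 2D culture. There was 1 library of 3D culture and 1 library of 2D culture, both from untreated cells of this line with no genotype difference named; they are called 3D cells and 2D cells below. RNA was taken up in TRIzol and made into stranded libraries of polyadenylated RNA, and the sources used here do not give how the 3D culture was set up.

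Cells repair DNA along several routes, which differ in the lesions they handle or in how they handle them. Homologous recombination copies an intact sister sequence across a break and needs BRCA1 and BRCA2, whereas end joining ligates the broken ends directly through Ku, DNA-PKcs and DNA ligase IV. The Fanconi proteins release crosslinked strands, mismatch repair corrects copying errors, and the excision routes cut out bulky or small base damage. ATM and ATR are the kinases that sense breaks and stalled forks and signal through CHK2 and CHK1. Macrophages make reactive oxygen and nitrogen species that damage their own DNA, and RAW264.7 is a dividing line.

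The 3D library held 16652503 counts, with at least 1 count for 15777 genes, and the 2D library held 14371084, with at least 1 count for 18580 genes. Values are counts per 1000000 scaled with TMM factors (CPM), levels are CPM per kilobase of exon, and the ratio is 3D over 2D with an exact Clopper-Pearson 95% interval that covers counting error only. Counts are printed unscaled, whereas ratios and folds are of scaled CPM. A gene was measured where its mean reached 1 CPM, and was called higher or lower where the ratio was at least 2-fold in either direction. With 1 library of each culture there was no spread between replicates and no test, so each ratio compares these libraries and not the culture methods in general. All 8 macrophage markers were detected in both libraries, with 127744 summed counts in 3D cells and 55555 in 2D cells and a higher CPM in the 3D library for 6 of the 8. All 6 hepatocyte markers had a higher CPM in the 3D library, with 319 summed counts in 3D cells against 10 in 2D cells. Markers of fibroblasts, epithelium, endothelium and lymphocytes summed to between 4 and 40 counts per list in 3D cells and to between 5 and 35 in 2D cells. Markers at 0 in 3D cells included Col3a1, Dcn, Tek, Cd3e, Cd3g and Cd4, and those at 0 in 2D cells included Ttr, Apob, Serpina1a, Col1a2, Col3a1, Krt18, Cd3e and Cd3g. Fewer cells using a gene and less RNA of it per cell cannot be told apart in such bulk libraries. The part of any other cell type in the ratios was not tested.

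Of the 54 repair genes, 53 were measured. Only Ercc1 and Ddb1 were higher by 2-fold or more in 3D cells, which is 3.77% of those measured, against 18.7% of all 11673 measured genes. Lower by 2-fold or more were 19, or 35.8%, against 20.8% of all measured genes, and 32 lay between. The median log2 ratio of the repair genes was −0.39, a difference of −0.44 from that of all measured genes. The 19 lower genes were 10 of homologous recombination, 3 of checkpoint signalling, 2 each of the Fanconi and end joining groups, and 1 each of mismatch and nucleotide excision repair, with 0 of base excision repair. The interval left out 1 for 42 of the 53 and held 1 for 11. The share of all measured genes whose interval left out 1 was not counted, so these numbers do not set the repair genes apart.

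**Figure D1:**
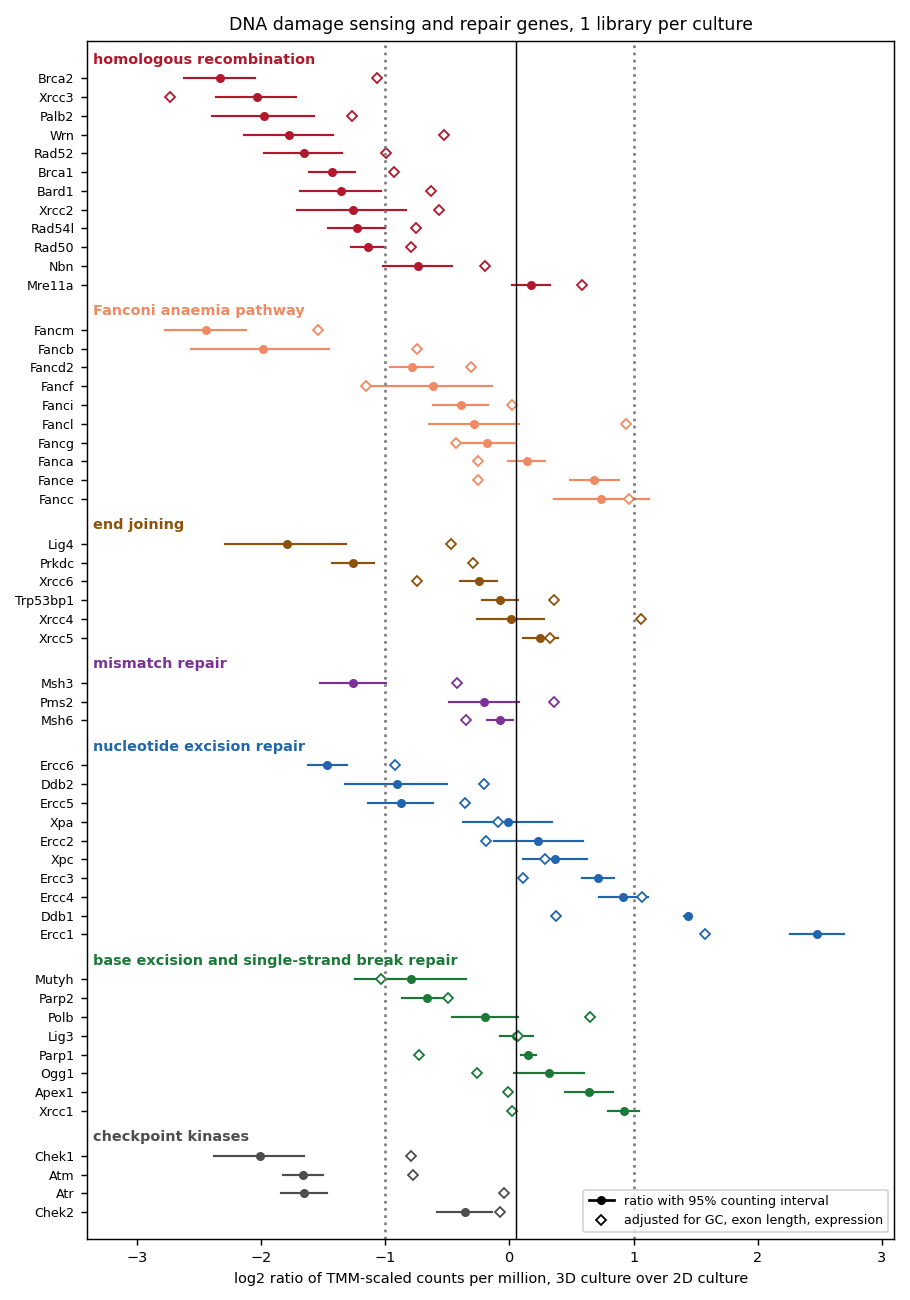
Log2 ratio of TMM-scaled counts per 1000000, 3D culture over 2D culture, for the 53 measured repair genes in their 7 groups, with 1 library per culture. Filled circles are ratios with 95% counting intervals, open diamonds are ratios adjusted for GC content, exon length and expression, dotted lines mark 2-fold and the solid line the median of all measured genes; 10 of 12 homologous recombination genes lie left of the lower dotted line, and Ercc1 and Ddb1 lie right of the upper one.

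The ratio followed base composition in these libraries, across repair genes and across all genes. Over the 53 repair genes, log2 ratio and GC content (taken from the longest transcript) had a Pearson r of 0.61 and a Spearman rho of 0.63, and over 10538 measured protein-coding genes r was 0.58 and rho 0.62. These are descriptions across genes that share the same 2 libraries, and genes are not replicates. The median log2 ratio was −1.28 in the lowest of 10 GC bins of protein-coding genes (31.0% to 41.3%) and 0.96 in the highest bin (57.7% to 71.3%). The repair genes had a median GC content of 47.2%, against 49.6% over all measured genes, and a median exon length of 5375 bases against 4286. An adjusted log2 ratio is therefore given beside the ratios below. It is the distance of a gene from a curve of log2 ratio on GC content, exon length and expression, fitted over 11666 genes, of which 45.0% of the variance followed that curve.

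After this adjustment, 3 repair genes (Ercc1, Ercc4 and Xrcc4) were at least 2-fold higher, against 10.1% of all genes. There were 6 at least 2-fold lower (Xrcc3, Fancm, Palb2, Fancf, Brca2 and Mutyh), which is 11.3% of the 53, against 10.2% of all genes. The median adjusted log2 ratio of the repair genes was −0.29, with 16 above 0 and 37 below. All 19 genes that were at least 2-fold lower stayed below 0 after adjustment, and 4 of them (Xrcc3, Fancm, Palb2 and Brca2) stayed at least 2-fold lower. These 19 were picked by a low ratio, and the adjusted value is made from that same ratio. Genes picked in this way tend to stay below 0, and the share of all lower genes that did so was not counted. Whether the trend with GC content arose in the cells or in the libraries was not tested.

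The base composition of 4 of these genes is shown here in coding sequence. The 4 stretches below are the middle 120 bases of the longest coding exon of a GC-rich gene that was lower in the 3D library (Xrcc3), an AT-rich gene that was lower (Brca2), a GC-rich gene that was higher (Ercc1) and a gene with an AT-rich transcript that was close to equal (Xrcc4), with every G and C in capitals. Taken from the GENCODE M21 transcripts, they come from exon 8 of 8 of Xrcc3 (chr12:111804500-111804619, minus strand), exon 11 of 27 of Brca2 (chr5:150540993-150541112, plus strand), exon 3 of 10 of Ercc1 (chr7:19348449-19348568, plus strand) and exon 3 of 8 of Xrcc4 (chr13:90062037-90062156, minus strand) in build mm10.
Xrcc3: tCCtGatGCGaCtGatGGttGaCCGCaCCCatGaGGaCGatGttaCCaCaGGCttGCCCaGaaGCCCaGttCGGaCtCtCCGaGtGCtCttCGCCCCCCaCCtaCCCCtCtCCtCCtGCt
Brca2: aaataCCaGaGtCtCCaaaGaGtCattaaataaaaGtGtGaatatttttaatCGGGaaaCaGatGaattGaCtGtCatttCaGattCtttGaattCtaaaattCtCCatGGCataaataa
Ercc1: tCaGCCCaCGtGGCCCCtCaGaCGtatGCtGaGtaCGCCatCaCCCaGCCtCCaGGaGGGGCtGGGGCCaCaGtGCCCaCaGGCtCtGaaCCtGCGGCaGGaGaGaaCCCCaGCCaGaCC
Xrcc4: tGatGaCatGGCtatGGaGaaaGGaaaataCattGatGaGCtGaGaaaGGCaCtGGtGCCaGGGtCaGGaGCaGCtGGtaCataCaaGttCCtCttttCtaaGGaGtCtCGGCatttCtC
G and C make up 60.8% of the Xrcc3 stretch, 29.2% of the Brca2 stretch, 66.7% of the Ercc1 stretch and 46.7% of the Xrcc4 stretch. Over the whole longest transcripts the GC content is 56.9% for Xrcc3, 42.4% for Brca2, 57.6% for Ercc1 and 42.1% for Xrcc4. Xrcc3 and Ercc1 are thus alike in composition and lay on opposite sides of equality. Brca2 and Xrcc4 have transcripts of like composition as well, and Xrcc4 was close to equality.

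**Figure D2:**
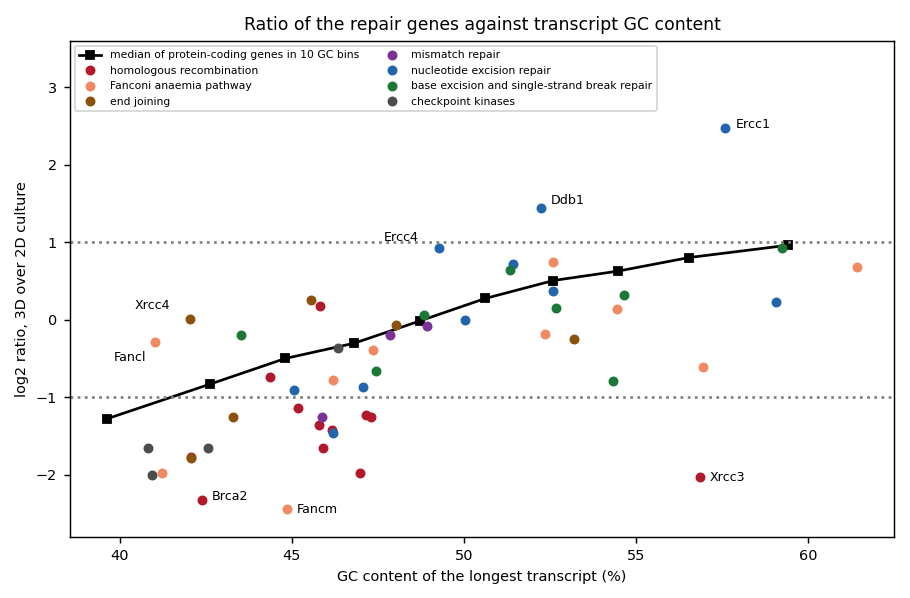
Log2 ratio, 3D culture over 2D culture, against GC content in percent (longest transcript) for the 53 measured repair genes (coloured circles, 1 colour per group), with the median of measured protein-coding genes in 10 GC bins (black squares and line). The ratios of the repair genes rise with GC content as the line does, but most of these genes lie below the line. Xrcc3 at 56.9% GC lies far below it and Ercc1 at 57.6% GC far above it, with log2 ratios of −2.03 and 2.48.

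Homologous recombination genes stood lower in the 3D library almost throughout. Of 12 measured, 10 were at least 2-fold lower, or 83.3% against 20.8% of all measured genes, and 0 were higher, against 18.7%. The median log2 ratio of the 12 stood at −1.44 relative to the median of all genes. After adjustment the median was −0.77, 11 of the 12 were below 0, and 3 remained at least 2-fold lower, or 25% against 10.2% of all genes. Their summed counts were 2544 in 3D cells and 7425 in 2D cells.

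Brca2, a central mediator of recombination (chr5:150522630-150570329, mm10), had 117 counts in 3D cells and 769 in 2D cells. Its level was 0.634 CPM per kilobase in 3D cells and 3.19 in 2D cells, a 5.03-fold lower value with an interval of 4.14-fold to 6.16-fold, and its adjusted log2 ratio was −1.06. Palb2, the partner that brings BRCA2 to BRCA1, had 60 counts in 3D cells and 308 in 2D cells and was 3.93-fold lower (2.97 to 5.27; adjusted log2 ratio −1.27). The intervals of the 2 partners overlap, and both stayed at least 2-fold lower after adjustment.

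Xrcc3, which acts in strand exchange (chr12:111803192-111813873, mm10), had 96 counts in 3D cells and 513 in 2D cells. Its level was 2.58 CPM per kilobase in 3D cells and 10.5 in 2D cells, 4.09-fold lower (3.28 to 5.14). Because its transcript is GC-rich, its distance from the curve was larger than its ratio, with an adjusted log2 ratio of −2.73, the lowest of the 53. Xrcc2, which acts at the same stage, had 59 counts in 3D cells and 185 in 2D cells and was 2.40-fold lower (1.78 to 3.27; adjusted log2 ratio −0.57).

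Brca1 and Bard1 encode the subunits of a ubiquitin ligase that promotes end resection. Brca1 had 302 counts in 3D cells and 1060 in 2D cells, 2.69-fold lower (2.36 to 3.06; adjusted log2 ratio −0.93). Bard1 had 105 counts in 3D cells and 351 in 2D cells, 2.56-fold lower (2.05 to 3.21; adjusted log2 ratio −0.63). Their level ratio, Brca1 over Bard1, was 1.91 in 3D cells and 2.00 in 2D cells, so the transcripts of the pair kept nearly the same proportion.

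Helicases, strand annealing and strand exchange factors were lower as well. Wrn, the helicase mutated in Werner syndrome, had 81 counts in 3D cells and 362 in 2D cells, 3.42-fold lower (2.68 to 4.41; adjusted log2 ratio −0.53). Rad52, which anneals single strands, had 109 counts in 3D cells and 449 in 2D cells, 3.15-fold lower (2.55 to 3.92; adjusted log2 ratio −0.99). Rad54l, a motor protein that assists strand exchange, had 210 counts in 3D cells and 643 in 2D cells, 2.34-fold lower (2.00 to 2.75; adjusted log2 ratio −0.76), and 15.4% of its exon bases also lie in exons of other genes, as annotated.

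The MRN complex, which holds and trims broken ends and activates ATM, was uneven. Rad50 had 577 counts in 3D cells and 1660 in 2D cells, 2.20-fold lower (2.00 to 2.42; adjusted log2 ratio −0.79). Nbn had 162 counts in 3D cells and 353 in 2D cells, 1.67-fold lower (1.38 to 2.02; adjusted log2 ratio −0.19). Mre11a, the nuclease of the complex, had 666 counts in 3D cells and 772 in 2D cells, which after scaling is a level of 8.30 CPM per kilobase in 3D cells and 7.36 in 2D cells and a ratio of 1.13 (1.01 to 1.25). It was the 1 homologous recombination gene above equality, with an adjusted log2 ratio of 0.58, but below equality when total counts or reference genes set the scale. The level of Rad50 relative to Mre11a was 0.955 in 3D cells and 2.37 in 2D cells.

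**Figure D3:**
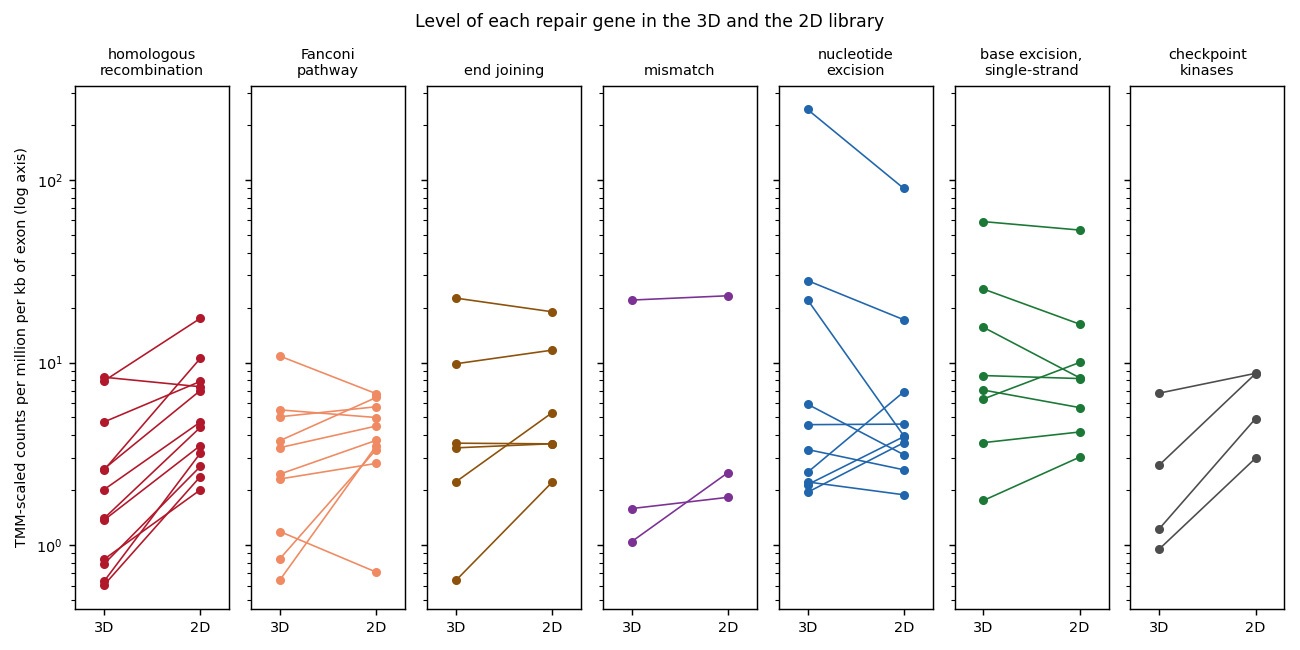
Level of each of the 53 measured repair genes, in TMM-scaled counts per 1000000 per kilobase of exon on a log axis, in the 3D library (left in each panel) and the 2D library (right), 1 panel per group, with a line joining the values of 1 gene. Lines of homologous recombination genes lead upward to the 2D library except that of Mre11a, whereas Ddb1, with levels of 243 in 3D cells and 89.9 in 2D cells, leads the nucleotide excision panel.

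Checkpoint kinases formed the group with the lowest median. Of 5 listed, 4 were measured, 3 of these were at least 2-fold lower, and the median log2 ratio stood at −1.71 relative to that of all genes. Chek1, the kinase that ATR activates at stalled forks, had 77 counts in 3D cells and 404 in 2D cells, 4.01-fold lower (3.14 to 5.19). Atm, the kinase that responds to breaks, had 384 counts in 3D cells and 1588 in 2D cells, 3.16-fold lower (2.83 to 3.55). Atr, the kinase that responds to single-stranded DNA, had 304 counts in 3D cells and 1250 in 2D cells, 3.15-fold lower (2.77 to 3.58).

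These 3 kinases also have transcripts of low GC content, between 40.8% and 42.6%. Their adjusted log2 ratios were −0.79 for Chek1, −0.77 for Atm and −0.05 for Atr, and the adjusted median of the group was −0.42. After adjustment 0 of the 4 measured genes were past 2-fold, where 10.1% of all genes were higher and 10.2% lower. For Atr, which has 23629 bases over all annotated exons and 8102 in its longest transcript, the ratio lay almost on the curve. This rested on the exon length used, as its log2 ratio adjusted for GC content alone was −0.56. Chek2, the kinase downstream of ATM, had 276 counts in 3D cells and 463 in 2D cells, a ratio of 0.779 (0.669 to 0.906; adjusted log2 ratio −0.08). Atrip, the partner that recruits ATR, was not measured: it had 0 counts in the 3D library, where 0 allows up to 0.180 counts per 1000000, and 7 counts in the 2D library. Of the annotated exon bases of Atrip, 16.0% are shared with Trex1 on the same strand.

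The Fanconi group had 2 of 10 genes at least 2-fold lower, or 20.0%, close to the 20.8% of all measured genes. Fancm, the translocase that moves the pathway onto crosslinked DNA (chr12:65075603-65132058, mm10), had 91 counts in 3D cells and 646 in 2D cells. Its level was 0.644 CPM per kilobase in 3D cells and 3.50 in 2D cells, 5.43-fold lower (4.36 to 6.84), the lowest ratio of the 53, and its adjusted log2 ratio was −1.54. Fancb, a core complex subunit encoded on the X chromosome, had 34 counts in 3D cells and 176 in 2D cells, 3.96-fold lower (2.73 to 5.90; adjusted log2 ratio −0.74).

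The substrate pair of the core complex, which is ubiquitinated when crosslinks block forks, was nearer to equality. Fancd2 was 1.72-fold lower (1.53 to 1.94; adjusted log2 ratio −0.31) and Fanci 1.31-fold lower (1.13 to 1.53; adjusted log2 ratio 0.02). Of the exon bases of Fanci, 16.0% are shared with an annotated gene on the other strand. Fancl, the ubiquitin ligase of the core complex, had 105 counts in 3D cells and 167 in 2D cells and a ratio of 0.822 (0.638 to 1.06), which holds 1. At 41.0% GC its adjusted log2 ratio was 0.94, so it lay above genes of like composition while Fancb, at 41.2% GC, lay below them. The level of Fancb relative to Fancl was 0.366 in 3D cells and 1.19 in 2D cells.

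Of the other core subunits, Fancf had 56 counts in 3D cells and 112 in 2D cells, 1.53-fold lower (1.10 to 2.15). Its transcript is GC-rich at 56.9%, and its adjusted log2 ratio of −1.16 placed it among the 6 lowest after adjustment. Fancg had a ratio of 0.882 (0.750 to 1.03; adjusted log2 ratio −0.43) and Fanca 1.10 (0.990 to 1.22; adjusted log2 ratio −0.26), both with intervals that hold 1. Fance had 468 counts in 3D cells and 381 in 2D cells and a ratio of 1.61 (1.40 to 1.84; adjusted log2 ratio −0.25) at 61.4% GC. Fancc had 134 counts in 3D cells and 105 in 2D cells and the highest ratio of the group, 1.67 (1.28 to 2.17; adjusted log2 ratio 0.96). Its level was 1.18 CPM per kilobase in 3D cells and 0.710 in 2D cells, and 18.6% of its exon bases are shared with other annotated genes. The median of the 10 was −0.39 relative to all genes and −0.28 after adjustment.

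End joining genes were mixed. The Ku subunits, which bind broken ends first, were close to equality: Xrcc6 (Ku70) had a ratio of 0.842 (0.758 to 0.934; adjusted log2 ratio −0.74) and Xrcc5 (Ku80) a ratio of 1.19 (1.08 to 1.31; adjusted log2 ratio 0.33). Xrcc5 had the highest level of the group, 22.5 CPM per kilobase in 3D cells and 19.0 in 2D cells. Prkdc, the catalytic subunit DNA-PKcs that Ku recruits, had 396 counts in 3D cells and 1237 in 2D cells, 2.39-fold lower (2.13 to 2.68; adjusted log2 ratio −0.29).

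Lig4 and Xrcc4 encode the ligase and its scaffold, which form 1 complex, and their ratios differed. Lig4 had 45 counts in 3D cells and 203 in 2D cells, 3.45-fold lower (2.49 to 4.88). Xrcc4 had 206 counts in 3D cells and 267 in 2D cells, levels of 3.61 in 3D cells and 3.58 in 2D cells, and a ratio of 1.01 (0.837 to 1.21). The level of Lig4 relative to Xrcc4 was 0.177 in 3D cells and 0.616 in 2D cells, which is 3.48-fold lower. Both transcripts have 42.1% GC; the adjusted log2 ratio was −0.47 for Lig4 and 1.06 for Xrcc4, so the pair remained apart after adjustment, although under scaling by total counts Xrcc4 itself had a log2 ratio of −0.59. Trp53bp1, the chromatin-bound factor that steers breaks toward end joining, had a ratio of 0.949 (0.857 to 1.05; adjusted log2 ratio 0.36). Of the exon bases of Trp53bp1, 15.0% are shared with an annotated gene on the other strand. The median of the 6 was −0.21 relative to all genes and 0.02 after adjustment.

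Mismatch repair had 3 listed genes. Msh3, which recognises larger insertion loops, had 159 counts in 3D cells and 496 in 2D cells, 2.39-fold lower (1.99 to 2.87; adjusted log2 ratio −0.42). Msh6, which recognises base mismatches, had 1293 counts in 3D cells and 1784 in 2D cells and a ratio of 0.947 (0.881 to 1.02; adjusted log2 ratio −0.35). Pms2, an endonuclease of the route, had a ratio of 0.868 (0.712 to 1.06; adjusted log2 ratio 0.36). The level of Msh3 relative to Msh6 was 0.0475 in 3D cells and 0.107 in 2D cells, which is 2.26-fold lower, while the adjusted log2 ratios of the 2 genes differed by only −0.07.

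Nucleotide excision repair held both genes that were higher by 2-fold or more in 3D cells. These were 2 of 10 genes, or 20%, close to the 18.7% of all measured genes. Lower by 2-fold or more was 1 of the 10, or 10% against 20.8% of all measured genes. Ercc1, the non-catalytic subunit of the nuclease that cuts on the 5′ side of the lesion (chr7:19344778-19356524, mm10), had 928 counts in 3D cells and 218 in 2D cells. Its level was 22.0 CPM per kilobase in 3D cells and 3.96 in 2D cells, a ratio of 5.56 (4.80 to 6.48), the highest of the 53, and its adjusted log2 ratio was 1.58. Ercc4 (XPF), the catalytic subunit of the same nuclease, had 538 counts in 3D cells and 372 in 2D cells and a ratio of 1.89 (1.65 to 2.16), just under 2-fold. Its transcript has 49.3% GC and its adjusted log2 ratio was 1.07, so both subunits stood above genes of like composition. The level of Ercc1 relative to Ercc4 was 3.73 in 3D cells and 1.27 in 2D cells.

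Ddb1 and Ddb2 encode the sensor of ultraviolet lesions, and DDB1 is also the adaptor of CUL4 ubiquitin ligases. Ddb1 had 21108 counts in 3D cells and 10186 in 2D cells and the highest level of all repair genes, 243 CPM per kilobase in 3D cells and 89.9 in 2D cells. Its ratio was 2.71 (2.64 to 2.77) and its adjusted log2 ratio 0.38, and scaled by total counts its log2 ratio was 0.84, under 2-fold. Ddb2 had 72 counts in 3D cells and 176 in 2D cells, 1.87-fold lower (1.41 to 2.50; adjusted log2 ratio −0.20), with 23.8% of its exon bases shared with other annotated genes. The level of Ddb1 relative to Ddb2 was 125 in 3D cells and 24.7 in 2D cells.

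The other nucleotide excision genes lay on both sides of equality. Ercc6 (CSB), which couples repair to stalled RNA polymerase, had 435 counts in 3D cells and 1569 in 2D cells, 2.76-fold lower (2.48 to 3.08; adjusted log2 ratio −0.92). Ercc5 (XPG), the nuclease of the 3′ side, was 1.83-fold lower (1.53 to 2.20; adjusted log2 ratio −0.36). Xpa, the scaffold that verifies damage, had a ratio of 0.993 (0.774 to 1.27; adjusted log2 ratio −0.09), and Xpc, the sensor of global genome repair, 1.29 (1.08 to 1.55; adjusted log2 ratio 0.29). Of the TFIIH helicases, Ercc3 (XPB) had a ratio of 1.64 (1.5 to 1.79; adjusted log2 ratio 0.11) and Ercc2 (XPD) 1.18 (0.916 to 1.51; adjusted log2 ratio −0.19), the second with 42.7% of its exon bases shared with other annotated genes. The median of the 10 was 0.25 above that of all genes and 0.01 after adjustment.

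Base excision and single-strand break repair had no gene past 2-fold in either direction, where 18.7% of all measured genes were higher and 20.8% lower. Xrcc1, the scaffold of single-strand break repair, had 1230 counts in 3D cells and 850 in 2D cells, levels of 15.6 in 3D cells and 8.24 in 2D cells, and a ratio of 1.89 (1.73 to 2.07). At 59.3% GC its adjusted log2 ratio was 0.02. Lig3, the ligase that XRCC1 carries, had a ratio of 1.04 (0.947 to 1.14; adjusted log2 ratio 0.07), and the level of Lig3 relative to Xrcc1 was 0.544 in 3D cells and 0.991 in 2D cells. Of the exon bases of Lig3, 25.1% are shared with an annotated gene on the other strand. Parp1, the main sensor of strand breaks, had 4237 counts in 3D cells and 4977 in 2D cells and the second highest level, 59.2 CPM per kilobase in 3D cells and 53.2 in 2D cells. Its ratio was 1.11 (1.07 to 1.16) and its adjusted log2 ratio −0.73.

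Among the remaining genes of this route, Mutyh, the glycosylase that removes adenine paired with oxidised guanine, was the lowest. It had 62 counts in 3D cells and 140 in 2D cells, 1.73-fold lower (1.27 to 2.37), and at 54.3% GC its adjusted log2 ratio was −1.04. Ogg1, the glycosylase that removes oxidised guanine itself, had a ratio of 1.25 (1.03 to 1.51) and an adjusted log2 ratio of −0.26. Parp2, a further sensor of strand breaks, was 1.58-fold lower (1.38 to 1.82; adjusted log2 ratio −0.49), and Polb, the gap-filling polymerase, had a ratio of 0.874 (0.725 to 1.05; adjusted log2 ratio 0.65). Apex1, the endonuclease that cuts at abasic sites, had a ratio of 1.56 (1.36 to 1.78; adjusted log2 ratio −0.01), but 61.7% of its exon bases are shared with an annotated gene on the other strand. The median of the 8 was 0.05 above that of all genes and −0.14 after adjustment.

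Directions near equality depended on the scale. With TMM factors 17 of the 53 genes were above equal CPM, with total counts 8 and with 22 reference genes 4 (Ddb1, Ercc1, Ercc4 and Xrcc1). The median of all measured genes was 0.05 on the log2 scale with TMM factors and −0.55 for the same genes with total counts, so medians of groups are given relative to it. Scaling by total counts or by reference genes moved every ratio downward by a constant. The 19 lower genes therefore had to stay at least 2-fold lower under both, which is no separate check of these calls.

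The 94 further genes of the same 7 routes give the wider setting. Of 93 measured, 31 were lower by 2-fold or more, or 33.3%, against 20.8% of all genes. Higher by 2-fold or more were 9, or 9.68%, against 18.7% of all genes. The median of the 93 was −0.53 relative to all genes and −0.13 after adjustment. In homologous recombination 10 of 23 were lower (43.5%) and 3 higher (13.0%). Gen1, a resolvase of crossed strands, had 119 counts in 3D cells and 733 in 2D cells, 4.71-fold lower (adjusted log2 ratio −0.97). Blm, the helicase mutated in Bloom syndrome, was 3.79-fold lower (adjusted −1.22) and its partner Rmi1 4.23-fold lower (adjusted −0.65). Mus81, the catalytic subunit of another resolvase, had 718 counts in 3D cells and 328 in 2D cells and a ratio of 2.86 (adjusted log2 ratio 0.86), and Babam1, a subunit of the BRCA1-A complex, a ratio of 2.45 (adjusted 0.05).

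End joining showed the largest difference of these further genes. Polq, the polymerase of microhomology-mediated joining, had 45 counts in 3D cells and 466 in 2D cells, 7.92-fold lower (5.83 to 11; adjusted log2 ratio −2.17). Rif1, an effector of 53BP1, was 5.85-fold lower with an adjusted log2 ratio of −1.26, and Dclre1c (Artemis), the nuclease that opens hairpins, 3.70-fold lower with an adjusted log2 ratio of −0.36. In all, 6 of these 15 genes were lower (40%, against 20.8% of all genes) and 1 was higher (6.67%, against 18.7%).

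Among further Fanconi genes, 4 of 10 were lower (40%, against 20.8% of all genes) and 3 higher (30%, against 18.7%). Rev3l, the catalytic subunit of translesion polymerase zeta, was 5.50-fold lower (adjusted log2 ratio −1.22), Usp1, which removes ubiquitin from FANCD2, 2.59-fold lower (adjusted −1.06), and Rev1, a translesion polymerase, 2.58-fold lower (adjusted −0.76). Mad2l2, the small subunit of polymerase zeta, had a ratio of 2.41 (adjusted log2 ratio 0.45), and the core complex partners Faap100 and Faap20 had ratios of 3.05 (adjusted 0.90) and 2.81 (adjusted 0.41). Subunits of polymerase zeta thus lay on opposite sides of equality.

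The remaining routes held the rest of the called genes. Of 11 further checkpoint genes 4 were lower (36.4%) and 0 higher, where 20.8% of all genes were lower and 18.7% higher. Topbp1, which activates ATR, was 3.69-fold lower (adjusted log2 ratio −1.6), and Etaa1, another activator of ATR, 4.17-fold lower (adjusted −0.61). Clspn, the adaptor between ATR and CHK1, was 2.15-fold lower (adjusted −1.09). Of 14 measured base excision genes 3 were lower (21.4%, close to the share of all genes) and 1 was higher (7.14%). The lower ones were the glycosylase Neil3, 5.06-fold (adjusted log2 ratio −1.23), Parg, which removes poly(ADP-ribose), 3.15-fold (adjusted −1.13), and the glycosylase Mbd4, 3.53-fold (adjusted −0.81). Of 16 nucleotide excision genes 2 were lower (12.5%) and 1 was higher (6.25%). Uvssa, which acts at stalled RNA polymerase, was 4.64-fold lower (adjusted log2 ratio −1.28) and Gtf2h1, a TFIIH subunit, 2.10-fold lower (adjusted −0.87). Rbx1, the RING subunit of cullin ligases, had a ratio of 2.01 (adjusted 1.61). Of 4 mismatch repair genes 2 were lower (50%), Pms1 3.15-fold and Mlh3 2.65-fold. Neither stayed past 2-fold after adjustment, with adjusted log2 ratios of −0.10 for Pms1 and −0.53 for Mlh3.

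**Figure D4:**
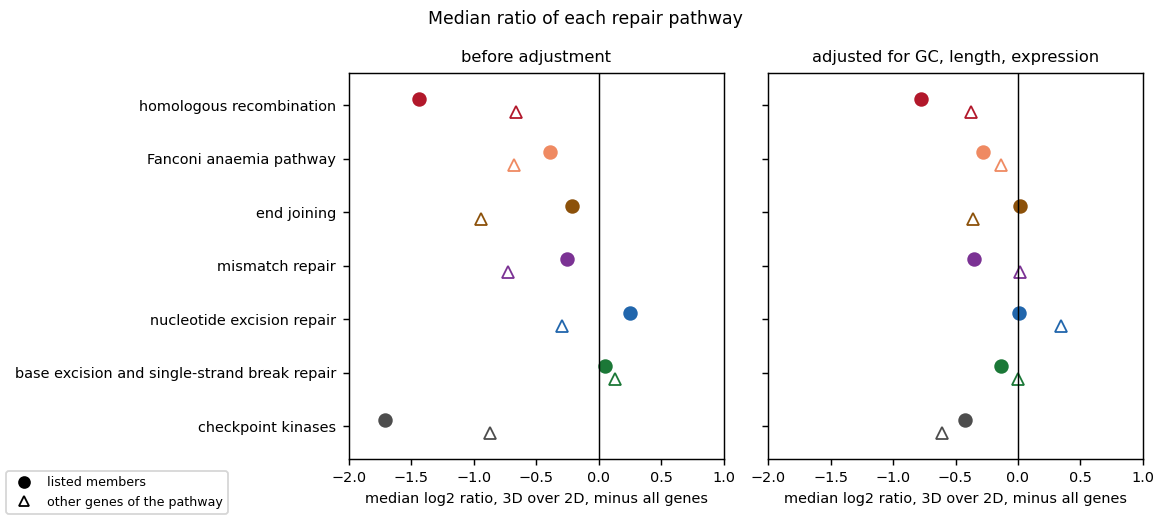
Median log2 ratio, 3D culture over 2D culture, of each of the 7 groups minus the median of all measured genes, before adjustment (left) and adjusted for GC content, exon length and expression (right); filled circles are the listed repair genes, open triangles the further genes of the same route. Listed checkpoint and homologous recombination genes have the lowest medians before adjustment (−1.71 and −1.44), and after it homologous recombination has the lowest median of the listed groups (−0.77).

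Genes of cell division and of the p53 response were counted beside the repair genes, because repair by recombination is used mainly in dividing cells. Of 16 proliferation genes 4 were at least 2-fold lower (Cenpf, Mki67, Top2a and Bub1), or 25% against 20.8% of all measured genes, and 1 was higher (Mcm5), or 6.25% against 18.7%. Adjusted log2 ratios were −1.79 for Cenpf, −0.96 for Top2a, −0.52 for Bub1 and 0.17 for Mcm5, so Cenpf and Mki67 stayed past 2-fold and the other 3 did not. The median of the 16 was −0.30 relative to all genes and −0.47 after adjustment. Mki67, a marker of cycling cells, had 2435 counts in 3D cells and 10937 in 2D cells, a ratio of 0.291 and an adjusted log2 ratio of −1.87. Of 14 measured p53 target genes, 2 were higher and 2 lower, each 14.3%, against 18.7% of all measured genes higher and 20.8% lower. Cdkn1a, the p53-induced inhibitor of cyclin-dependent kinases, had 8782 counts in 3D cells and 2954 in 2D cells, a ratio of 3.89 and an adjusted log2 ratio of 0.71, and Phlda3 had a ratio of 4.16 (adjusted 1.01). Rrm2b and Polk, which supply nucleotides and translesion synthesis, had ratios of 0.313 (adjusted log2 ratio −0.12) and 0.315 (adjusted −0.65), neither past 2-fold after adjustment. The part of cell division in the ratios of the repair genes was not tested.

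Promoter sequence was compared for the 43 measured repair genes that have a RefSeq entry of 250 bases before to 50 after the start (GRCm38.p6), against 8721 measured genes with an entry. The entry nearest to the GENCODE gene start was taken, at whatever distance. Some lay away from it, such as that of Fancc by 65533 bases, of Xrcc6 by 28534 and of Fancl by 949, and these were counted too. On either strand, CCAAT was present in 25 of the 43 (58.1%) and in 39.3% of all, the E2F-like letters TTTNNCGC in 8 (18.6%) and in 9.20% of all, and the NRF1-like letters GCGCATGC in 8 (18.6%) and in 5.94% of all. The GC box GGGCGG was present in 30 (69.8%) and in 66.3% of all, and the CHR-like letters TTTGAA in 2 (4.65%) and in 12% of all. Of the 15 with an entry that were at least 2-fold lower, CCAAT was present in 7, against 18 of the other 28, and the E2F-like letters in 3, against 5 of the other 28. The NRF1-like letters were present in 4 of the 15 and in 4 of the 28. The GC box was present in 11 of the 15 and 19 of the 28, and the CHR-like letters in 1 of each. Matches that overlap were counted each. A match describes letters in a window and not a site in use.

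The bases before the start of Xrcc3 (chr12:111813880-111814129, minus strand) and Fancm (chr12:65075353-65075602, plus strand), the 2 repair genes with the lowest adjusted ratios, are shown with matches to any of these motifs in capitals.
Xrcc3: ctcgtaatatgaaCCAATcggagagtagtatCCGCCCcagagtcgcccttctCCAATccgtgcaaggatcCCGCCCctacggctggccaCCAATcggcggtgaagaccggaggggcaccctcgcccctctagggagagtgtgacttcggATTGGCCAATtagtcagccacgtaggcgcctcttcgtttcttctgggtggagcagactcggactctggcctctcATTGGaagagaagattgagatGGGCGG
Fancm: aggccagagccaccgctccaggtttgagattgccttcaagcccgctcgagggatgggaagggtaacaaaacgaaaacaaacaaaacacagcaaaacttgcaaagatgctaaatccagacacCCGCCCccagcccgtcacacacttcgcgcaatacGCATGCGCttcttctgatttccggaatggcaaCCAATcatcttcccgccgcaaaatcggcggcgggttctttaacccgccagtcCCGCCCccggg
The 250 bases of Xrcc3 hold 6 CCAAT matches and 3 GC boxes, and those of Fancm hold 1 CCAAT match, 2 GC boxes and 1 NRF1-like match. The E2F-like and CHR-like letters are in neither.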

How the data were processed

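The deposited tables hold counts of reads per Ensembl gene for 1 library of 3D and 1 of 2D culture, which the submitters' processing notes say the authors made with Trimmomatic, HISAT2, HTSeq and build mm10. The sources used here do not give versions, settings, annotation release or strand option, so counts of genes with shared exons or near-identical copies are uncertain. From these counts, 99.7% of identifiers were matched to GENCODE M21, which gave symbols, exon lengths, overlaps and transcript sequence. TMM factors (edgeR 4.0.16, R 4.3.3) were 0.813 (3D) and 1.231 (2D). No test or p-value was possible with 1 library of each culture. A library at 0 was set to a floor of 3 counts for ratios. The adjusted log2 ratio is the residual from natural cubic splines (4 degrees of freedom each) of GC content, log2 exon length and log2 mean CPM, centred on the median of all genes. Scripts were tested on simulated data. The repair genes, the further lists and the pairs of complex partners were chosen with earlier results of these data known; every repair gene of the main list is named, with full values for those past 2-fold and for group extremes, and up to 3 further genes in each direction per route are named among those past 2-fold with a mean of at least 5 CPM, ranked by the interval bound nearest 1. Some genes of the lists are not reported here by name. Alternatives were DESeq2 1.42.0 size factors, total counts, the upper quartile, reference genes, other filters, a pseudocount, other fold thresholds, thinning, protein-coding genes alone and partial adjustments.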

Additional observations from a re-analysis of the deposited data

How the results depend on the processing

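The 2 higher and 19 lower repair genes stayed at these numbers with DESeq2 size factors, the upper quartile, a pseudocount, no filter, a filter at 5 CPM, thinning and protein-coding genes alone. With total counts 1 of the 53 was higher and 26 were lower, against 657 and 4292 of all 11749 measured genes. With reference genes 1 was higher and 30 were lower, against 436 and 4914 of all 11789. Both results follow from a shift of all ratios. Among all genes called, 47.3% were higher with TMM factors, 13.3% with total counts and 8.15% with reference genes. At 1.5-fold 8 were higher and 26 lower, against 3701 and 3552 of all 11673 measured genes. At 4-fold 1 was higher and 4 were lower, against 260 and 779 of all 11673, so the lower share was near that of all genes. Of the 19, 17 had an interval wholly past 2-fold, as did 1680 of all 11673 genes on the lower side. Adjustment for GC content, exon length and expression gave 3 higher and 6 lower, against 1173 and 1188 of all 11666 genes, and 4 of those 6 were among the 19. Adjustment for GC content alone gave 2 higher and 11 lower, against 1276 and 1652 of all 11666. Adjustment for exon length alone gave 5 higher and 18 lower, against 1698 and 2344 of all 11666. The median relative to all genes lay between −0.54 and −0.29 over these settings, and no gene past 2-fold turned its direction. No paired analysis was possible because each culture had 1 library, and for the same reason no library could be left out in turn. Genes under about 100 counts in a library have wide intervals, and genes near equality cannot be given a direction.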

Other observations

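Of the further repair genes, Fen1, the flap endonuclease of long-patch base excision, had 33 counts in 3D cells and 34 in 2D cells, and 84.2% of its annotated exon bases are shared with genes on the other strand. Neil2 had 0 counts in both libraries. How far shared exons lowered the counts of Fen1 was not tested.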
